A study of Mus musculus with 11 samples.

Results

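The genes described here make, convert or consume nicotinamide adenine dinucleotide (NAD) in mammary tumours: Nampt, Nmnat1, Nmnat3, Nadk, Nadsyn1, Qprt, Nnmt, Naprt, Nnt and Cd38. They were listed by their enzymatic role, and every array probe annotated to them was taken. Of the 10 genes 9 had a probe, with 25 probes among them, out of 19057 named genes and 45281 probes on the array. Cd38, which encodes a NAD-cleaving enzyme of the cell surface, was matched to no probe by symbol or gene identifier and is not analysed here.

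The tumours came from female mice killed at an age of 12 weeks. The 5 PyMT/SIRT6 tumours (5 arrays) came from mice carrying the PyMT oncogene (polyoma virus middle T) and, in addition, the Sirt6BAC allele, an extra Sirt6 gene on a bacterial artificial chromosome described as giving functionally competent protein. The 6 PyMT tumours (6 arrays) came from mice with the oncogene and no such allele, so the oncogene was common to all 11 tumours. The labels name neither the promoter of the oncogene nor the strain of the mice. Nor do they say that the tumours were taken from separate mice, and the p-values cover no more than the spread among these 11 samples, which may be technical.

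NAD carries electrons in metabolism and is also cut up by enzymes such as sirtuins, which use it as a cosubstrate and release nicotinamide. Cells rebuild it from nicotinamide through Nampt and the Nmnat enzymes, from nicotinic acid through Naprt and Nadsyn1, and from tryptophan through a longer route that Qprt joins to the rest. Nadk turns NAD into NADP, Nnt couples the mitochondrial NADH and NADP pools, and Nnmt methylates nicotinamide, which takes it out of the salvage route.

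Values are log2 probe intensities. The deposited intensities had no visible background subtraction, so the level of unspecific signal was read from 1287 probes for olfactory receptors, a family with no known role in mammary tissue. The 95th percentile of their means was 7.33 on the log2 scale, and a probe whose mean over the 11 arrays lay at or below it is called dim. In these female tumours 0 of 7 Y-linked genes lay above that limit. A dim probe is not a sign of missing RNA: the probe of the epithelial surface gene Epcam was dim at a mean log2 intensity of 7.26, although the epithelial keratin Krt8 stood at 12.69 and 8 of 10 luminal epithelial markers lay above the limit.

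Sirt6 followed the labels. Its brightest probe, ILMN_2684909, had log2 intensities of 8.49, 8.64, 8.31, 8.19 and 8.23 in the PyMT/SIRT6 tumours, against a lowest of 7.64, a median of 7.78 and a highest of 7.88 in the PyMT tumours. The groups did not overlap on any of its 3 probes. The change of this probe was 0.61 ± 0.08 (SE) on the log2 scale, and it passed limma's test over all probes (adjusted p = 0.0386). The call was close to the threshold: a Sirt6 probe passed in 15 of 26 alternatives and none in 11, among them the fits without each of the 6 PyMT tumours in turn, without PyMT/SIRT6 replicate 1 or 3, and without the tumours high in skeletal muscle markers (lowest adjusted p = 0.147). Each Sirt6 probe or mean fitted was higher in PyMT/SIRT6 tumours in every one of the 26 alternatives. Skeletal muscle marker genes stood apart in 4 tumours, PyMT/SIRT6 replicates 1, 4 and 5 and PyMT replicate 5, where the mean log2 intensity of the list ran from 9.76 to 11.38, against 7.38 to 8.35 in the other 7.

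No NAD gene differed between the genotypes past the threshold. In limma 0 of the 25 probes had an adjusted p under 0.05, against 3 of all 45281 probes (0.00663%), and the adjusted p of the 25 ran from 0.979 to 0.999. With an unadjusted p under 0.05, 2 of the 25 probes were lower in PyMT/SIRT6 tumours (8%) and 0 were higher, while 2.7% of all probes were lower at that level. Both of these probes were dim. Of the 25 changes 10 were above and 15 below zero, with a median of −0.01 against a median of −0.00 over all probes. The median size of the change was 0.03 on the log2 scale for both the 25 probes and all probes.

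Of the 25 probes 12 lay above the background limit, and they covered 8 of the 9 genes. For these 12 the 95% intervals of the change are given on the scale of the deposited values. They come from the fit of all 11 tumours without covariates. They do not bound the change in the alternatives, some of which moved it, as given below. Outside Nnmt the intervals reached no lower than 0.796-fold and no higher than 1.24-fold. For Nnmt they reached 1.54-fold higher. Background signal is part of every value, so for probes near the limit these folds may understate a change in RNA.

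**Figure D1:**
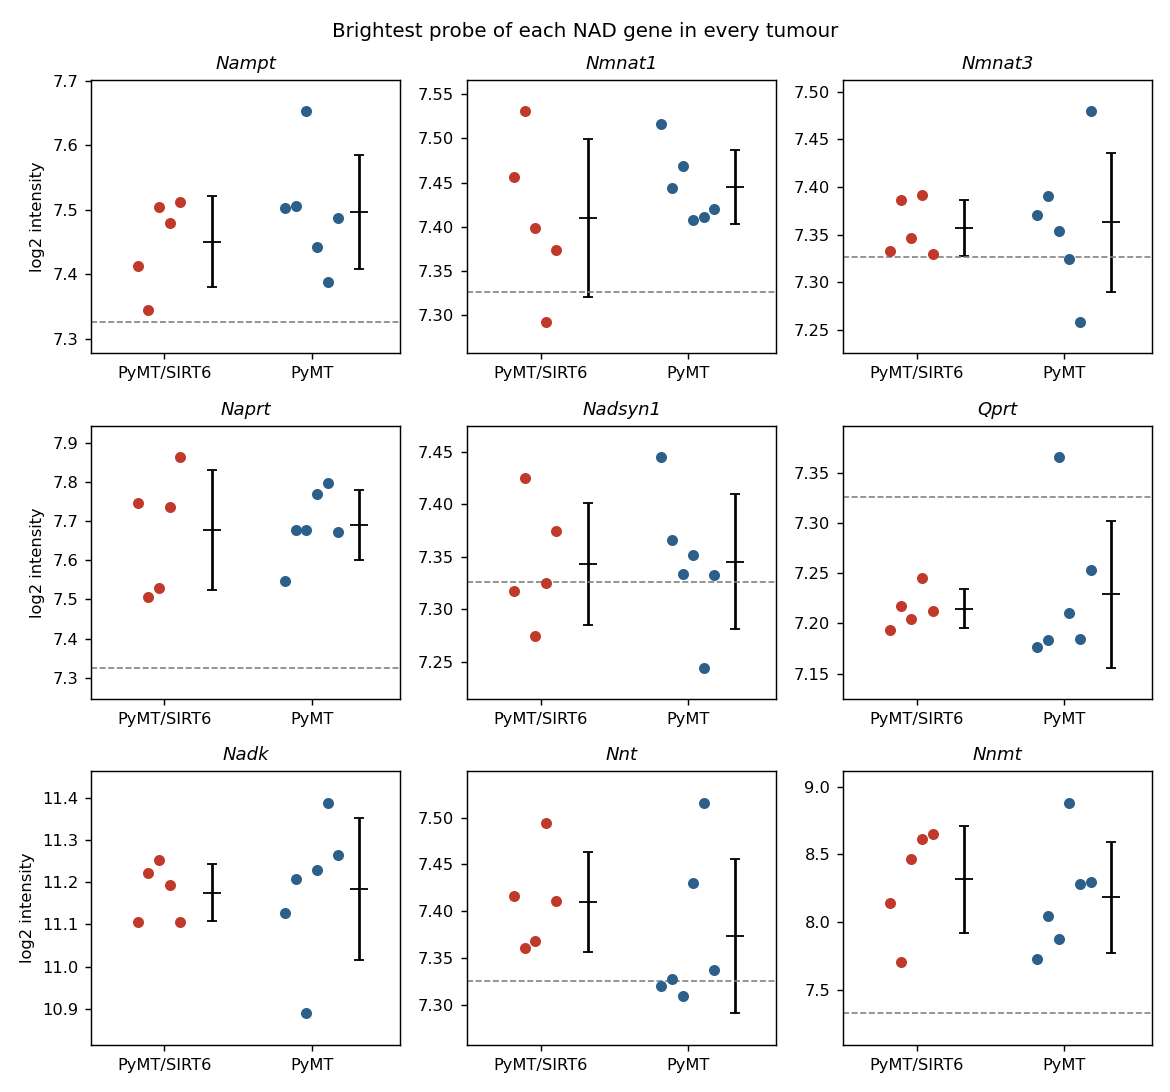
Log2 intensity (vertical axis, a separate scale for each gene) of the brightest probe of 9 NAD genes in 5 PyMT/SIRT6 and 6 PyMT tumours. Each point is a tumour, the black mark and bar are the mean and SD, and the dashed line is the background limit of 7.33, which lies below the range drawn for Nadk. The genotypes overlap in every panel, and Nnmt has the widest range.

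**Figure D2:**
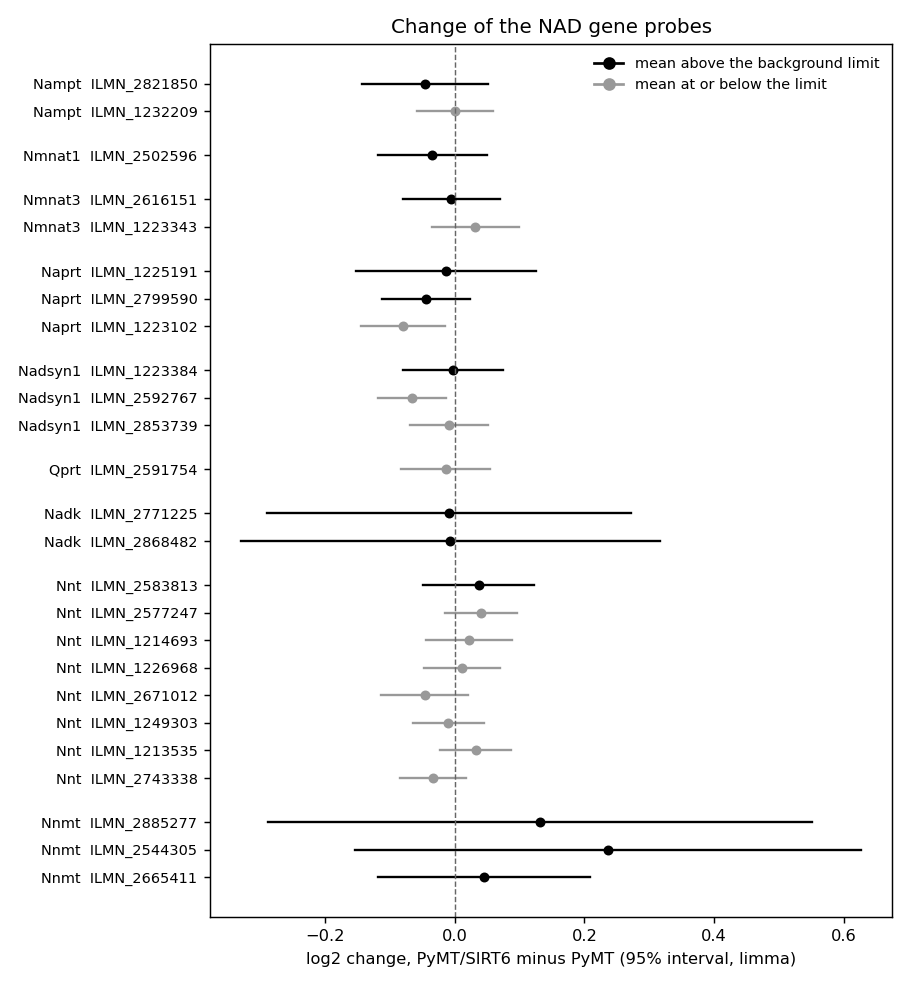
Log2 change (PyMT/SIRT6 minus PyMT) of all 25 probes of the NAD genes, with limma's 95% interval, in black for the 12 probes with a mean above the background limit and in grey for the 13 dim probes. The intervals of 2 dim probes, one of Naprt and one of Nadsyn1, lie wholly below zero, and all others include it.

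Nampt, the rate-limiting enzyme of the nicotinamide salvage route, lay near the background limit on both of its probes. The brighter, ILMN_2821850, read 7.41, 7.34, 7.50, 7.48 and 7.51 in the PyMT/SIRT6 tumours. In the PyMT tumours the same probe had a lowest value of 7.39, a median of 7.50 and a highest of 7.65. The groups overlapped almost fully, with PyMT replicate 3 the highest of all tumours and PyMT/SIRT6 replicate 2 the lowest. The change was −0.05 ± 0.05 (SE; 95% interval −0.14 to 0.05; limma adjusted p = 0.979). PyMT replicate 3 also had the highest mean of the hypoxia genes, at 9.10, against 8.37 to 8.88 in the other PyMT tumours. In PyMT/SIRT6 tumours that mean ran from 8.29 to 8.69, and replicate 2, lowest in Nampt, was the highest of them. The part of hypoxia in the Nampt values was not tested. The second probe, ILMN_1232209, was dim and differed by 0.00 ± 0.03.

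The Nmnat enzymes join the nucleotide precursor to adenylate and so complete NAD: Nmnat1 works in the nucleus and Nmnat3 is assigned to mitochondria. The single Nmnat1 probe, ILMN_2502596, read 7.46, 7.53, 7.40, 7.29 and 7.37 in PyMT/SIRT6 tumours, and had a lowest of 7.41, a median of 7.43 and a highest of 7.52 in PyMT tumours. The lowest and the highest tumour were both PyMT/SIRT6, replicates 4 and 2. Its change was −0.03 ± 0.04 (SE; limma adjusted p = 0.981). The brighter Nmnat3 probe, ILMN_2616151, lay just above the limit, from 7.33 to 7.39 in PyMT/SIRT6 tumours and from 7.26 to 7.48 in PyMT tumours, and differed by −0.01 ± 0.04. The other Nmnat3 probe was dim and differed by 0.03 ± 0.03.

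Naprt starts the nicotinic acid route, known as the Preiss-Handler pathway. Its brightest probe, ILMN_1225191, read 7.75, 7.51, 7.53, 7.74 and 7.86 in the PyMT/SIRT6 tumours, and had a lowest of 7.55, a median of 7.68 and a highest of 7.80 in the PyMT tumours. PyMT/SIRT6 tumours thus held both the highest and the lowest values, and the change was −0.01 ± 0.07 (SE; limma adjusted p = 0.994). The 3 PyMT/SIRT6 tumours high in skeletal muscle markers were the 3 with high Naprt, from 7.74 to 7.86, while the other 2 read 7.51 and 7.53. PyMT replicate 5, also high in muscle markers, had 7.80, the highest of its group. Without these 4 tumours the change was −0.15 (limma adjusted p = 0.999, 2 PyMT/SIRT6 against 5 PyMT tumours). With the skeletal muscle mean as a covariate over all 11 tumours it was −0.07 (limma adjusted p = 0.998).

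Of the 3 Naprt probes, the 2 above the limit moved together across tumours, and the dim one did not follow them. ILMN_2799590, the second above the limit, correlated with the brightest at r = 0.79 over the 11 arrays and differed by −0.05 ± 0.03 (SE). The dim probe ILMN_1223102 correlated with the brightest at r = −0.13. It read 7.13 to 7.21 in PyMT/SIRT6 tumours and 7.15 to 7.32 in PyMT tumours, a change of −0.08 ± 0.03 (SE; limma adjusted p = 0.979), and was one of the 2 probes with an unadjusted p under 0.05. The brightest probe, at −0.01 over all 11 tumours, was at −0.15 without the 4 tumours high in muscle markers, where the dim probe was at −0.10, and both were at −0.07 with the muscle covariate.

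Nadsyn1, the glutamine-dependent synthetase that ends the nicotinic acid route and the tryptophan route, was near the background on all 3 probes. The brightest, ILMN_1223384, read 7.27 to 7.42 in PyMT/SIRT6 tumours and 7.24 to 7.44 in PyMT tumours, and differed by −0.00 ± 0.04 (SE). On ILMN_2592767, a dim probe, the genotypes did not overlap: it read 7.25, 7.31, 7.32, 7.26 and 7.29 in the PyMT/SIRT6 tumours, against a lowest of 7.33, a median of 7.35 and a highest of 7.40 in the PyMT tumours. The gap between the nearest tumours was under the spread within either genotype, and the change was −0.07 ± 0.02 (SE; limma adjusted p = 0.979), the other with an unadjusted p under 0.05. It was the only one of the 25 probes without overlap in that direction, where 0.232% of all probes were so, and 0 probes of the 25 were so in the other direction. The third probe, also dim, differed by −0.01 ± 0.03.

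Qprt, which feeds the product of tryptophan breakdown into NAD synthesis, had a single probe, and it was dim. ILMN_2591754 read 7.19, 7.22, 7.20, 7.25 and 7.21 in the PyMT/SIRT6 tumours and had a lowest of 7.18, a median of 7.20 and a highest of 7.37 in the PyMT tumours. Only PyMT replicate 3 stood above the limit. The change was −0.01 ± 0.03 (SE; limma adjusted p = 0.984).

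Nadk, the cytosolic NAD kinase that makes NADP, was far above the limit on both probes, and its change did not pass the threshold on either. ILMN_2771225 read 11.10, 11.22, 11.25, 11.19 and 11.10 in PyMT/SIRT6 tumours, and had a lowest of 10.89, a median of 11.22 and a highest of 11.39 in PyMT tumours. The geometric mean intensity was 2312 in PyMT/SIRT6 and 2327 in PyMT tumours. Its change was −0.01 ± 0.13 (SE; 95% interval −0.29 to 0.27; limma adjusted p = 0.997).

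The PyMT/SIRT6 tumours lay inside the range of the PyMT tumours on both Nadk probes. The second probe, ILMN_2868482, had the same order at both ends, with PyMT replicate 5 highest at 11.49 and PyMT replicate 3 lowest at 10.79, and differed by −0.01 ± 0.15. The probes correlated at r = 0.81 over the 11 arrays. Without the 4 tumours high in muscle markers the changes were 0.09 and 0.16, neither past the threshold (lowest adjusted p of the 25 NAD gene probes over the 26 alternatives 0.699). In the fit of all 11 tumours the 95% intervals of the 2 probes together ran from 0.796-fold to 1.24-fold.

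Nnt, the inner-membrane transhydrogenase that uses the proton gradient to make NADPH, had 8 probes and 7 of them were dim. Those 7 ran from 7.11 to 7.36 over all tumours, and their changes ran from −0.05 to 0.04, 4 above and 3 below zero. The dim probes included all those annotated to the RefSeq transcripts, and the remaining one, ILMN_2583813, was annotated to a cDNA clone. The dim probes ILMN_2577247, ILMN_1214693 and ILMN_1249303 were annotated to cDNA clones as well. C57BL/6J mice are known to carry a deletion in this gene, and the labels give no strain, so its part in these values was not tested.

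The Nnt probe above the limit read 7.42, 7.36, 7.37, 7.49 and 7.41 in PyMT/SIRT6 tumours, and had a lowest of 7.31, a median of 7.33 and a highest of 7.52 in PyMT tumours. The change was 0.04 ± 0.04 (SE; limma adjusted p = 0.981). The highest tumours were PyMT replicate 5 and PyMT/SIRT6 replicate 4, both high in muscle markers. Correlations between pairs of Nnt probes over the 11 arrays ran from −0.85 to 0.55 with a median of −0.15, so the 8 probes did not share a pattern over tumours.

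Nnmt, which methylates nicotinamide with S-adenosylmethionine and is known for high levels in fat tissue and in tumour fibroblasts, varied most. Its brightest probe, ILMN_2885277, read 8.14, 7.71, 8.47, 8.61 and 8.65 in the PyMT/SIRT6 tumours, and had a lowest of 7.72, a median of 8.16 and a highest of 8.88 in the PyMT tumours. The highest and lowest tumours, PyMT replicate 4 and PyMT/SIRT6 replicate 2, differed 2.26-fold, and the groups overlapped throughout. The geometric mean intensity was 318 in PyMT/SIRT6 and 291 in PyMT tumours, a change of 0.13 ± 0.20 (SE; 95% interval −0.29 to 0.55; limma adjusted p = 0.982).

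All 3 Nnmt probes had overlapping genotypes. ILMN_2544305 differed by 0.24 ± 0.18 (SE; limma adjusted p = 0.979) and ILMN_2665411 by 0.04 ± 0.08, all 3 changes being above zero and none past the threshold. The probes correlated with each other at r = 0.85 to 0.97 over the 11 arrays. The small positive change turned with the tumours included: without the 4 high in muscle markers the 3 probes gave −0.08, −0.00 and −0.06. Leaving out a tumour at a time, the brightest gave 0.04 to 0.28, ILMN_2544305 0.14 to 0.41 and ILMN_2665411 0.01 to 0.10. The highest values came without PyMT/SIRT6 replicate 2 for the first 2 of these probes, where ILMN_2544305 had an unadjusted p under 0.05 (limma adjusted p = 0.699), and without PyMT replicate 4 for the third.

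The spread of Nnmt between tumours of one genotype was wide by the standard of the array. Its residual SD was 0.40 on the log2 scale, and 6.1% of the 10790 genes above the background limit had a larger one. The same SD was 0.13 for Nadk and 0.12 for Naprt, where the median over those genes was 0.15. The brightest probes of the other 5 genes above the limit had residual SDs from 0.06 to 0.08, and the genotype change was smaller than the residual SD for all 8 genes.

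Nnmt ran with markers of adipocytes over the tumours. The adipocyte list had 9 members with a probe, 6 of them above the limit, and its mean per tumour ran from 7.56 to 8.27 in PyMT/SIRT6 and from 7.57 to 8.54 in PyMT tumours. PyMT replicate 4, highest in Nnmt, was also highest in the list, and PyMT/SIRT6 replicate 2 was lowest in both. Fabp4 and Plin1, fat cell genes of the list, were dim at 7.20 and 7.27, while the hormone gene Adipoq averaged 8.98. In bulk tissue, fewer cells of a type and less RNA per cell cannot be told apart.

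The relation was tested for 3 genes, Nadk, Nnmt and Naprt, each against the means of 11 marker lists, which gave 33 relations. The skeletal muscle list was not among the 11, so relations of these genes with it were not tested. This choice of genes was made after their levels were seen. Nnmt against the adipocyte list had Pearson's r = 0.868 (permutation p = 0.00074, adjusted p = 0.0244) and Spearman's rho = 0.855 (permutation p = 0.00145, adjusted p = 0.0478), n = 11. It was the only relation of the 33 to pass, and 8 had an unadjusted permutation p under 0.05. Without the 2 tumours farthest from the list's median, r was 0.757. Among the 6 PyMT tumours alone it was 0.858, among the first 6 arrays deposited 0.896, and without the 4 tumours high in muscle markers 0.937. The first 6 arrays are named only by deposit order, since the labels give no batch.

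Against fibroblast and matrix genes Nnmt had r = 0.806 (permutation p = 0.00325, adjusted p = 0.0536) and rho = 0.782 (permutation p = 0.00633, adjusted p = 0.104), which did not pass. Without the 2 farthest tumours r was 0.808. Nnmt also had r = 0.687 with T and NK cell markers (permutation p = 0.0181, adjusted p = 0.117; rho = 0.70, permutation p = 0.0202, adjusted p = 0.167; r without the 2 farthest 0.695). With hypoxia genes it had r = −0.676 (permutation p = 0.0213, adjusted p = 0.117; rho = −0.545, permutation p = 0.0879, adjusted p = 0.341; r without the 2 farthest −0.528). With B and plasma cell markers it had r = −0.613 (permutation p = 0.0445, adjusted p = 0.183; rho = −0.582, permutation p = 0.066, adjusted p = 0.341; r without the 2 farthest −0.247). Of the fibroblast list 9 of 12 members lay above the limit, and its mean ran from 8.09 to 8.73 in PyMT/SIRT6 and from 8.0 to 8.54 in PyMT tumours. Naprt against the adipocyte list had r = 0.732 (permutation p = 0.0118, adjusted p = 0.117) and rho = 0.755 (permutation p = 0.00973, adjusted p = 0.107), and r was 0.656 without the 2 farthest tumours and 0.368 among the first 6 arrays. Nadk against the luminal epithelial list had r = 0.701 (permutation p = 0.0192, adjusted p = 0.117) and rho = 0.67 (permutation p = 0.0283, adjusted p = 0.187), with r at 0.506 without the 2 farthest. Nadk against the hypoxia list had r = −0.654 (permutation p = 0.0305, adjusted p = 0.144) and rho = −0.551 (permutation p = 0.0831, adjusted p = 0.341), and that relation rested on the 2 farthest tumours, without which r was 0.013. With the adipocyte mean as a covariate the change of the brightest Nnmt probe between genotypes was 0.16 (limma adjusted p = 0.912), and that of ILMN_2544305 was 0.27 (limma adjusted p = 0.884), with an unadjusted p under 0.05. For the brightest probe it was, with the fibroblast mean, an alternative chosen after the data were seen, −0.01.

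**Figure D3:**
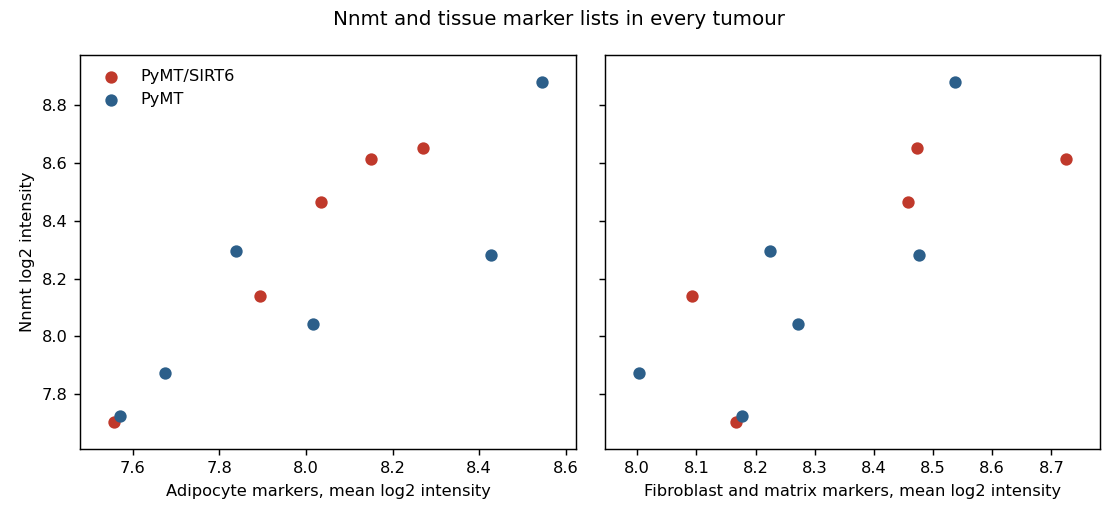
Log2 intensity of the brightest Nnmt probe (vertical axis) against the mean log2 intensity of adipocyte markers (left) and of fibroblast and matrix markers (right) in 5 PyMT/SIRT6 (red) and 6 PyMT (blue) tumours. Each point is a tumour. Tumours of both genotypes lie along one rising band, with r = 0.868 for adipocyte markers and r = 0.806 for fibroblast markers. Without the 2 tumours farthest from each list's median these were 0.757 and 0.808.

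The genes whose level followed each NAD gene most closely over the 11 tumours were taken from 10789 other genes above the limit, by Pearson's r on the brightest probe, as a description. For Nnmt they were Olfml1 (r = 0.92), Sncg (r = 0.92) and Adipoq, the adipocyte hormone adiponectin (r = 0.91). Without the 4 tumours high in muscle markers these were 0.93, 0.95 and 0.98. For Nadk they were Sorbs2 (0.92), Klf9, a Kruppel-like transcription factor (0.91), and Itpk1, an inositol phosphate kinase (0.90), at 0.96, 0.87 and 0.92 without those 4. For Naprt they were Cox8b, a subunit of cytochrome oxidase found in muscle (0.91), Man2a2 (0.89) and Mmd (0.89). Without the same 4 tumours the Naprt values fell to 0.85, 0.77 and 0.83.

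The other 5 genes had probes close to the limit, where the order of tumours rests on small differences. Nampt was closest to Snrpd3, Phb2 and Msrb3 (r from 0.94 to 0.95), and Nmnat1 to Shmt2, Stt3a and Snrpa (0.92 to 0.95). Nmnat3 was closest to Usp53, Trappc13 and Cep120 (0.85 to 0.89), Nadsyn1 to Eya2, Slc25a25 and Snx3 (0.88 to 0.96), and Nnt to Snx29, Gabrg3 and Tmem164 (0.92 to 0.95). Without the 4 tumours high in muscle markers, r for these 5 genes ran from 0.68 (Nnt with Tmem164) to 0.99 (Nadsyn1 with Eya2). All genes on an array share its RNA and hybridisation, and the highest of so many values is high by selection.

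Outside the listed genes, Sirt6 was the 1 wider NAD gene to pass over all 11 tumours, a call lost in 11 of 26 alternatives. Of 66 further genes in 7 lists 62 had a probe and 41 lay above the limit on their brightest probe. Leaving aside Sirt6 itself, 0 of 61 passed in limma over all probes and 2 had an unadjusted p under 0.05 (3.28%), where the brightest probes of all genes gave 4.9%. Over all genes the median change was −0.00, and 10224 of 19057 changes were below zero.

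On the tryptophan route all 8 genes had a change below zero and 0 passed, with 5 of them dim and a median of −0.02. Ido1, the interferon-inducible enzyme that opens tryptophan, was the bright member and varied widely. It read 7.98, 8.24, 8.04, 7.68 and 9.43 in PyMT/SIRT6 tumours, and had a lowest of 8.11, a median of 8.56 and a highest of 9.11 in PyMT tumours. PyMT/SIRT6 tumours held both the highest and the lowest value, and the change was −0.29 ± 0.25 (SE; limma adjusted p = 0.979). Its relative Ido2 differed by −0.03 ± 0.03, and Kmo and Haao, later enzymes of the route, were dim and differed by −0.05 ± 0.03 and −0.03 ± 0.04.

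Among salvage, riboside and transport genes 4 of 11 lay above the limit, 9 changes were below zero and 0 passed, with a median of −0.04. The nicotinamide riboside kinase Nmrk1 differed by −0.08 ± 0.06 (SE). Its relative Nmrk2, the mitochondrial NAD carrier Slc25a51 and Pnp2, a nucleoside phosphorylase, were dim, at −0.04 ± 0.03, −0.04 ± 0.03 and 0.03 ± 0.03. Nt5e, the surface nucleotidase CD73, varied more widely, from 8.44 to 9.48 in PyMT/SIRT6 and from 8.06 to 9.15 in PyMT tumours, and differed by −0.01 ± 0.21.

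Of the enzymes that cleave NAD or transfer its ADP-ribose, 6 of the 8 listed had a probe, 4 lay above the limit and 0 passed. Bst1, a relative of Cd38, was dim and differed by 0.04 ± 0.03 (SE). Art1, an ADP-ribosyltransferase known from skeletal muscle, read 7.41, 7.30, 7.27, 7.73 and 7.98 in PyMT/SIRT6 tumours, and had a lowest of 7.23, a median of 7.29 and a highest of 8.0 in PyMT tumours. Its 4 highest tumours were the 4 high in skeletal muscle markers, and the change between genotypes was 0.14 ± 0.15. Art3 and Art4 differed by −0.06 ± 0.09 and −0.02 ± 0.06.

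The PARP family, enzymes that attach ADP-ribose from NAD to proteins, had 13 of 15 members above the limit, 5 changes above and 10 below zero, a median of −0.03 and 0 past the threshold. Parp9 and Parp3 were the 2 genes with an unadjusted p under 0.05. The Parp9 change was 0.11 ± 0.04 (SE; limma adjusted p = 0.979), at 7.42 to 7.54 in PyMT/SIRT6 and 7.22 to 7.48 in PyMT tumours. The Parp3 change was −0.08 ± 0.04 (limma adjusted p = 0.979), at 7.21 to 7.39 in PyMT/SIRT6 and 7.33 to 7.49 in PyMT tumours. Parp16 and the dim Tiparp differed by 0.06 ± 0.04 and 0.04 ± 0.03. Parp1, the main DNA-damage member, differed by −0.11 ± 0.15.

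Among the sirtuins, all 7 were above the limit and only Sirt6 passed in the fit of all 11 tumours, with its call lost in the alternatives given above. Sirt7, Sirt4 and Sirt5 differed by −0.19 ± 0.17, 0.05 ± 0.05 and −0.08 ± 0.11 (SE). In the list of nicotinamide methylation and clearance, Aox1 and Aox3, oxidases that act on methylated nicotinamide, were dim. They differed by −0.02 ± 0.03 and 0.01 ± 0.03. Ahcy, which hydrolyses the by-product of methylation, differed by −0.12 ± 0.11, and Cyp2e1 by −0.09 ± 0.30.

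The list of enzymes that reduce NADP, the product of Nadk, or in some cases NAD, had 8 of 11 members above the limit. Of its changes 9 were below zero, with a median of −0.04 and 0 past the threshold. The folate enzyme Mthfd1 differed by −0.19 ± 0.11 (SE; 95% interval −0.43 to 0.05) and the folate enzyme Aldh1l1 by −0.09 ± 0.06. Pgd, of the pentose phosphate pathway, and Me3, a mitochondrial malic enzyme, were dim and differed by 0.04 ± 0.02 and −0.03 ± 0.02.

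**Figure D4:**
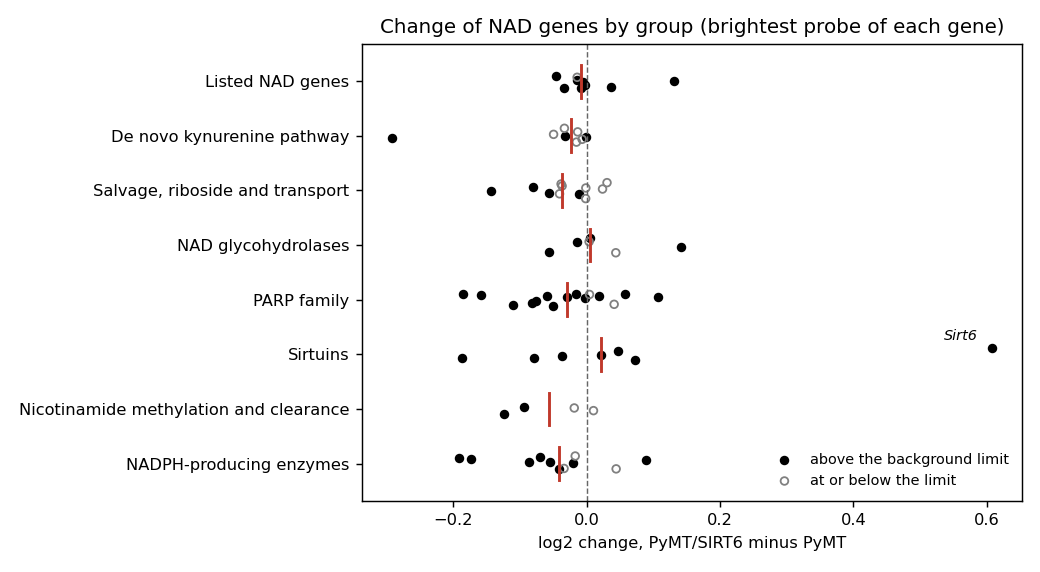
Log2 change (PyMT/SIRT6 minus PyMT, horizontal axis) of the brightest probe of each gene in the listed NAD genes and 7 further groups. Filled points lie above the background limit, open points are dim, and red bars are group medians, which run from −0.06 to 0.02. Sirt6, at 0.61, stands apart from all other points.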

How the data were processed

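Per the labels' protocols, biotinylated cRNA was prepared from total RNA of 11 mammary tumours and read on Illumina Mouse WG-6 v2.0 chips. The deposited values are linear probe intensities. Background treatment and normalization: not given in the sources used here. Across arrays, values of equal rank differed by at most 1.08%, and medians lay between 157.5 and 157.6, so no scaling was added. The number of arrays limits the precision.

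Of 45281 probes 34885 had a single gene symbol, 18 several and 10378 none; 34807 had their gene identifier in a RefSeq gene table (GRCm38.p6), which changed 0 symbols. That table was used for names only.

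Log2 intensities of every probe were fitted with limma 3.58.1 in R 4.3.3 (lmFit, eBayes with intensity trend, no covariate), PyMT/SIRT6 minus PyMT, with Benjamini-Hochberg adjustment over all probes and a threshold of 0.05. The fit was tested on simulated data first. Lists were read at each gene's probe with the highest mean. Relations with marker lists used permutation tests with 100000 resamples (Python 3.11.15) and adjustment over all 33; they were added after the data were seen. Genes were named by a rule: all listed NAD genes, up to 4 genes per other list by smallest p plus genes needed for an enzyme step, and the 3 genes most alike in pattern per NAD gene. The NAD genes, lists and alternatives were chosen with earlier results of these data known. Alternatives were background subtraction (normexp, offset 16), an offset of 50, filters, other probe rules, centring, variance models, array weights, deposit order, tissue covariates and leaving out arrays. Replicate numbers follow deposit order and pair no samples.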

Additional observations from a re-analysis of the deposited data

Results flagged for a closer look

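Of 30 groups of tumours checked over 15 probes, 2 held a tumour far from the rest of its group by Dixon's ratio, where chance gives about 1 in 20. On the Nadk probe ILMN_2868482, PyMT replicate 5 read 11.49, and the next PyMT tumour read 11.04. On the dim Nadsyn1 probe ILMN_2592767, PyMT replicate 1 read 7.40, and the next PyMT tumour read 7.35. PyMT replicate 5 was also high in skeletal muscle markers, at 11.38. PyMT/SIRT6 replicates 1, 4 and 5, high in those markers too, read 10.91, 11.06 and 10.91 on that Nadk probe. The part of muscle in these Nadk values was not tested.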

How the results depend on the processing

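Under 26 alternatives, 11 of them leaving out a tumour, 0 NAD gene probes and 0 other NAD pathway genes besides Sirt6 passed the threshold in limma, and the lowest adjusted p of the 25 NAD gene probes was 0.699. A Sirt6 probe passed in 15 alternatives and none in 11: with the brightest probe per gene (lowest adjusted p = 0.0574), without the intensity trend (0.131), without the tumours high in muscle markers (0.147), and in 8 of the 11 fits that left out a tumour. The number of NAD gene probes at an unadjusted p under 0.05 was 2, and became 1 with the dimmer probes left out, 0 with only the brightest probe per gene as well and 0 with the mean of a gene's probes, since these settings drop or merge the dim probes; leaving out a tumour gave 2 to 3. The adipocyte covariate gave 3, of which 1 was higher (Nnmt ILMN_2544305, 0.27). Without the tumours high in muscle markers the number was again 2, but with Naprt ILMN_1225191 (−0.15) in place of Nadsyn1 ILMN_2592767 (−0.04). Over 15 probes followed, 335 of 375 values kept their direction and 40 turned, all without passing; the cause was not tested. With deposit order as a block Nadk turned to 0.0012 (ILMN_2771225) and 0.0077 (ILMN_2868482), and Naprt (ILMN_1225191) to 0.0014; with array weights that Naprt probe turned to 0.0086. Nmnat3 (ILMN_2616151) turned to 0.013 with the mean of its probes, 0.0075 with the skeletal muscle covariate, 0.0052 with the lymphocyte covariate and 0.0003002 with the fibroblast covariate. Nadsyn1 (ILMN_1223384) turned to 0.012 with the skeletal muscle and 0.0073 with the fibroblast covariate. Nnmt (ILMN_2885277) turned to −0.051 with the lymphocyte and −0.013 with the fibroblast covariate, under which ILMN_2665411 was at −0.0016. Without the tumours high in skeletal muscle markers Nadk turned to 0.093 and 0.156, Nmnat1 to 0.013, and Nnmt to −0.079, −0.0026 and −0.065. Leaving out a tumour gave ranges of −0.068 to 0.032 and −0.053 to 0.087 for Nadk, −0.023 to 0.018 for Nadsyn1, −0.061 to 0.028 for Naprt, −0.026 to 0.018 for Nmnat3 and −0.025 to 0.013 for Qprt. With background subtracted, both Nadk probes stayed at −0.01. Changes grew for dim probes and for other probes above the limit: to 0.21 for the brightest Nnmt probe, 0.11 for Nnt, −0.12 for Nampt and −0.10 for Nmnat1. Naprt ILMN_2799590 came to −0.13, Naprt ILMN_1223102 to −0.31 and Nadsyn1 ILMN_2592767 to −0.21. None of these had a limma adjusted p under 0.98. Signal near background limits what most of these probes can show. No paired analysis was made, since the labels pair no tumours across the genotypes.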
